A study of Mus musculus with 7 samples.

Results

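A set of 10 long noncoding RNAs was followed in mouse tibialis anterior (TA), a hind-limb muscle made up mostly of fast fibres, with and without *Mybpc2*. The set held the snoRNA host RNAs *Snhg6*, *Snhg1*, *Snhg8*, *Snhg12* and *Gas5*, the nuclear RNAs *Malat1* and *Neat1*, the imprinted RNAs *Meg3* and *H19*, and the uncharacterised transcript *2310015D24Rik*. They were taken by symbol, and all 10 were found among the 12239 genes of the deposited expression table. The comparison asked whether the rise of *Snhg6* was shared by other host RNAs and nuclear noncoding RNAs. The set was put together with the C2-/- against WT comparison known, so its own changes between genotypes are given as descriptions, with errors and without p-values. Whether one of them was past the threshold set for all genes is stated in the same sense, and no support is drawn from it.

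The animals were male FVBN mice, 5 to 6 months old per the sample titles. Other passages of the study start the age range lower. The mice were either wild type (WT, 4 libraries) or homozygous for a *Mybpc2* allele in which most exons were replaced by a neomycin cassette (C2-/-, 3 libraries). *Mybpc2* encodes the fast-fibre form of myosin-binding protein C, and the allele is present in every tissue from conception. No treatment was given for either group. Polyadenylated RNA of whole muscle was sequenced, so fewer cells of a type and less RNA per cell cannot be told apart.

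A snoRNA host gene carries small nucleolar RNAs in its introns, which are released when the host transcript is spliced. Box C/D snoRNAs guide ribose methylation of ribosomal RNA and box H/ACA snoRNAs guide its pseudouridylation. The spliced host RNA is exported, and several hosts, *Gas5* and *Snhg1* among them, are known to start with a pyrimidine tract and to be degraded by nonsense-mediated decay. *Malat1* is retained in nuclear speckles, where splicing factors gather. *Neat1*, its neighbour on the chromosome, is the scaffold of paraspeckles. *Meg3* and *H19* are expressed from the maternal allele of imprinted clusters, and *H19* is abundant in fetal muscle.

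The small RNAs that the hosts carry set the hosts apart from the other noncoding RNAs of the set, and a few are shown for that reason. In the GENCODE annotation of GRCm38, 23 snoRNAs lay within 5 of the 10 genes and none lay within *Malat1*, *Neat1*, *Meg3*, *H19* or *2310015D24Rik*. *Snhg6* held 1 snoRNA, *Snhg8* held 1, *Snhg12* held 4, *Snhg1* held 8 and *Gas5* held 9. In the sequences that follow, written 5′ to 3′ on the strand of the RNA from that annotation, capitals mark the C box (TGATGA within 20 bases of the start) with the D box (CTGA within 20 bases of the end), or an ACA 3 bases from the end.
Snord87 in *Snhg6*, chr1:9942463-9942549, minus strand: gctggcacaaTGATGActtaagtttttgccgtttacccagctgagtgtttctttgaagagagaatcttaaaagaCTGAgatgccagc
Snord99 in *Snhg12*, chr4:132310691-132310764, plus strand: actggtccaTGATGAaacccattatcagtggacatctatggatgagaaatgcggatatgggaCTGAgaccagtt
Snord47 in *Gas5*, chr1:161038082-161038158, plus strand: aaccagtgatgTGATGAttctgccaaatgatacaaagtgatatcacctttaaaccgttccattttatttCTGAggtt
Snora24 in *Snhg8*, chr3:123507937-123508066, minus strand: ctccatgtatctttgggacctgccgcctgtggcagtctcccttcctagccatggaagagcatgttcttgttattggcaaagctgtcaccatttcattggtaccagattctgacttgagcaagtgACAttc
Snora61 in *Snhg12*, chr4:132310240-132310369, plus strand: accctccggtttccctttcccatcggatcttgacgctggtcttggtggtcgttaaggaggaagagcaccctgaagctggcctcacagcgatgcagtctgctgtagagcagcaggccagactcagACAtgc

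Both C/D letters were present in the snoRNA of *Snhg6*, in 6 of the 8 of *Snhg1*, in 1 of the 4 of *Snhg12* and in 7 of the 9 of *Gas5*, and the ACA in that of *Snhg8* and in 2 of *Snhg12*. Over the 1507 annotated snoRNA genes, 20.6% held the C and D letters in these windows and 18.3% held the ACA, searched on the strand of the RNA only. *Snhg6*, *Snhg1* and *Gas5* were thus C/D hosts by these letters, *Snhg8* an ACA host and *Snhg12* a host of both kinds. The snoRNAs themselves, which are short and lack a poly(A) tail, were not analysed here.

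The first 30 bases of the host RNAs are shown because the pyrimidine tract lies there. RefSeq starts (GRCm38.p6) were matched for *Snhg1*, *Snhg8*, *Snhg12* and *Gas5*, and capitals mark the unbroken run of C and T at the start.
Snhg1, chr19:8723487-8723516, plus strand: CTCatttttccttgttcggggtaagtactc
Snhg8, chr3:123508307-123508336, minus strand: CTCTTTggctgcgatccgcctacgagtatg
Snhg12, chr4:132308678-132308707, plus strand: TTTCTCgcttcatccgcggtccctgtctgt
Gas5, entry 2, chr1:161035166-161035195, plus strand: CTTTCggagctgtgcggcattctgagcagg
A start at C with a run of at least 5 pyrimidines was found for *Snhg8* and for 1 of the 2 *Gas5* entries, that is 2 of 5 host entries. It was found in 1 of 15 entries of the other noncoding hosts, 14 of 73 ribosomal protein entries and 2.51% of all 32851 entries. *Snhg1*, known to start with a tract, had a run of only 3 at its annotated start. An annotated start a few bases off hides a tract, so an entry without a run is not read as lacking it. *Snhg6* was matched in the gene annotation only.

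The 7 libraries were unequal. The reads in the table summed to 4683853 to 15464499 in WT and to 2613277 to 4917936 in C2-/-, and WT replicate 4 was the shallowest WT library. Levels are given as log2 CPM, that is reads per 1000000 after TMM scaling with 0.5 reads added. Each change is the C2-/- mean minus the WT mean on the log2 scale, and its standard error (SE) comes from limma. As a check of the labels, the targeted gene *Mybpc2* had 25665 to 110159 reads per WT library and 3 to 8 per C2-/- library. Changes also moved with the GC content of the transcript (Spearman's rho -0.68 across 12174 genes), so the change of each of the 10 RNAs is given again on values with the GC trend of each library removed. The part of GC content, depth and cell makeup in the changes was not tested.

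*Snhg6*, the C/D host at chr1:9941959-9944118, was the RNA that differed most. Its values were 1.21, 1.81, 1.40 and 1.51 in WT and 5.22, 5.48 and 5.57 in C2-/-. The groups were far apart and each was tight, with 1.48 ± 0.25 (SD, n = 4) in WT and 5.43 ± 0.18 (SD, n = 3) in C2-/-. The change was +3.94 (SE 0.31), a 15.4-fold higher level, and stood 13th among the rises of all 12239 genes.

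The rise of *Snhg6* rested on more reads in shallower libraries. It had 35, 52, 40 and 12 reads in WT replicates 1 to 4 and 108, 119 and 229 reads in C2-/- replicates 1 to 3. The depth of WT replicate 4 lay in the C2-/- range. The C2-/- mean minus this 1 library, with its 12 reads, was +3.92, and the part of depth was not tested. On GC-corrected values the change was +3.02 (SE 0.30). The 753 genes within 1 percentage point of its GC content (41.5%) had a median change of +0.96, and *Snhg6* stood 2.99 above them. At its 3′ end, 127 bases of *Snhg6* (chr1:9941959-9942085) overlap *Mcmdc2* on the opposite strand. The use of strand in counting was not stated, and *Mcmdc2* was not analysed here.

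**Figure D1:**
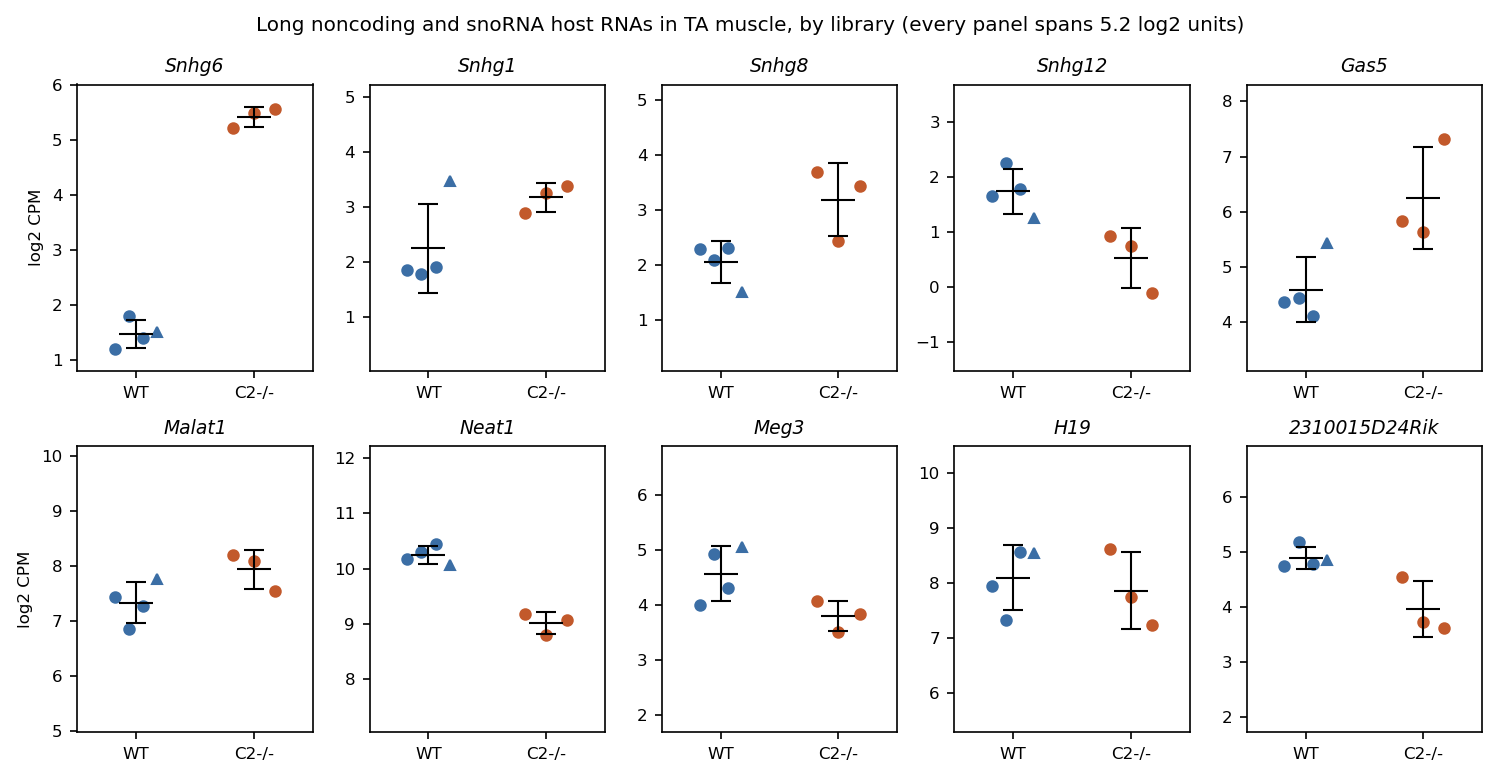
Log2 CPM of the 10 RNAs in each library, with 1 panel per RNA and every vertical axis spanning the same 5.2 log2 units. Circles and triangles are libraries (the triangle is WT replicate 4) and black bars are mean ± SD over 4 WT and 3 C2-/- libraries. The *Snhg6* groups lie 3.94 apart, whereas the groups of *Snhg1*, *Malat1*, *Meg3* and *H19* overlap.

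*Gas5*, the host with the most snoRNAs (chr1:161034422-161038539), was also higher in C2-/-, by less and with a wider spread. Its values were 4.35, 4.44, 4.10 and 5.44 in WT and 5.82, 5.62 and 7.32 in C2-/-. The groups did not overlap, but WT replicate 4 and C2-/- replicate 2 were 0.18 apart and C2-/- replicate 3 stood 1.49 above the next library. The means were 4.58 ± 0.59 (SD, n = 4) and 6.25 ± 0.93 (SD, n = 3), a change of +1.67 (SE 0.43) or 3.18-fold. Without C2-/- replicate 3 the change was +1.14, against WT replicate 4 alone +0.82, and with GC correction +0.84 (SE 0.39). The last value was not past the threshold of an adjusted p under 0.05 with a fold above 1.5. A stretch of 428 bases at the 5′ end of *Gas5* overlaps *Zbtb37* on the opposite strand, which was not analysed here.

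*Snhg8*, the ACA host (chr3:123507552-123508404), had values of 2.30, 2.08, 2.32 and 1.51 in WT and 3.69, 2.44 and 3.44 in C2-/-. The C2-/- libraries were all above the WT libraries, with replicate 2 only 0.12 above the nearest on 14 reads. The change was +1.14 (SE 0.43), not past the threshold, and +0.70 (SE 0.43) with GC correction. Without C2-/- replicate 2 it was +1.51 and passed. It had 12 to 76 reads in WT and 14 to 52 in C2-/-.

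*Snhg1*, the host of 8 snoRNAs (chr19:8723475-8726443), had values of 1.86, 1.78, 1.90 and 3.46 in WT and 2.89, 3.25 and 3.39 in C2-/-. The groups overlapped because WT replicate 4 was above all 3 C2-/- libraries. The change was +0.92 (SE 0.47), not past the threshold. Without WT replicate 4 it was +1.33 and passed, and against WT replicate 4 alone it was -0.29. With GC correction it was -0.11 (SE 0.42), and the 636 genes of like GC content had a median change of 1.002.

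*Snhg12*, the host of both kinds (chr4:132308623-132311024), went the other way. Its values were 1.66, 2.26, 1.77 and 1.26 in WT and 0.92, 0.75 and -0.10 in C2-/-, so that every C2-/- library was below every WT library. The change was -1.21 (SE 0.52), not past the threshold, and -1.41 (SE 0.51) with GC correction. The C2-/- values rested on 5, 4 and 4 reads, close to the 3 reads taken as the floor of detection.

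Differences between RNAs within a library do not depend on the scaling between libraries. *Snhg6* minus *Snhg12* was -0.25 ± 0.34 (SD, n = 4) in WT and 4.90 ± 0.70 (SD, n = 3) in C2-/-. *Snhg6* minus *Snhg1* went from -0.77 ± 0.84 to 2.25 ± 0.08, and *Snhg6* minus *Snhg8* from -0.57 ± 0.52 to 2.23 ± 0.76. *Snhg6* minus *Gas5* went from -3.10 ± 0.60 to -0.83 ± 0.83. In none of these 4 differences did the WT and C2-/- libraries overlap. The distance between *Snhg6* and each of the other 4 hosts thus shifted by 2.27 to 5.16 between the genotypes.

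*Neat1* (chr19:5824708-5845478), the gene of the paraspeckle scaffold, was lower in C2-/-. Values are per gene on polyadenylated RNA. Its transcripts were not told apart, and the scaffold was not measured by itself. Its values were 10.18, 10.31, 10.45 and 10.07 in WT and 9.17, 8.80 and 9.07 in C2-/-. Each group was tight and the groups were 0.90 apart at their nearest libraries. The means were 10.25 ± 0.17 (SD, n = 4) and 9.01 ± 0.19 (SD, n = 3), a change of -1.24 (SE 0.17), or 2.36-fold lower. It was measured on 4725 to 21546 reads in WT and 1187 to 2604 in C2-/-. With GC correction the change was -1.48 (SE 0.16), and the 1259 genes of like GC content had a median change of +0.26.

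*Malat1*, the nuclear speckle RNA 22.0 kb away (chr19:5795690-5802672), had values of 7.43, 6.86, 7.26 and 7.75 in WT and 8.19, 8.09 and 7.53 in C2-/-. C2-/- replicate 3 lay below WT replicate 4, so the groups overlapped. The change was +0.61 (SE 0.24), not past the threshold, and -0.20 (SE 0.22) with GC correction, so that its direction depended on that correction. It passed without C2-/- replicate 3 (+0.81) or without WT replicate 4 (+0.76). *Neat1* minus *Malat1* within a library was 2.93 ± 0.50 in WT and 1.08 ± 0.43 in C2-/-, without overlap.

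*2310015D24Rik* (chr16:13514131-13521107), annotated as a long intergenic RNA, had values of 4.75, 5.18, 4.79 and 4.85 in WT and 4.54, 3.73 and 3.62 in C2-/-. All C2-/- libraries were below the WT libraries, with C2-/- replicate 1 only 0.21 below the nearest. The change was -0.93 (SE 0.27), or 1.90-fold lower, and -0.91 (SE 0.26) with GC correction. It was past the threshold with all 7 libraries, but not without C2-/- replicate 2 (-0.81), without C2-/- replicate 3 (-0.76) or without WT replicate 2 (-0.83).

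*Meg3* (chr12:109541001-109571726) had values of 3.99, 4.91, 4.30 and 5.05 in WT and 4.06, 3.51 and 3.83 in C2-/-. The groups overlapped at WT replicate 1 and C2-/- replicate 1. The change was -0.76 (SE 0.31), not past the threshold, and -0.73 (SE 0.30) with GC correction. Without WT replicate 1 it was -0.95 and passed.

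*H19* (chr7:142575529-142578143) had values of 7.94, 7.33, 8.56 and 8.55 in WT and 8.61, 7.74 and 7.23 in C2-/-. Both groups spread over more than 1 log2 unit and lay over each other. The change was -0.24 (SE 0.36), not past the threshold, and its direction turned with GC correction (+0.92, SE 0.36). *H19* had the highest GC content of the set (55.8%), and the 1196 genes like it in GC content had a median change of -1.12.

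**Figure D2:**
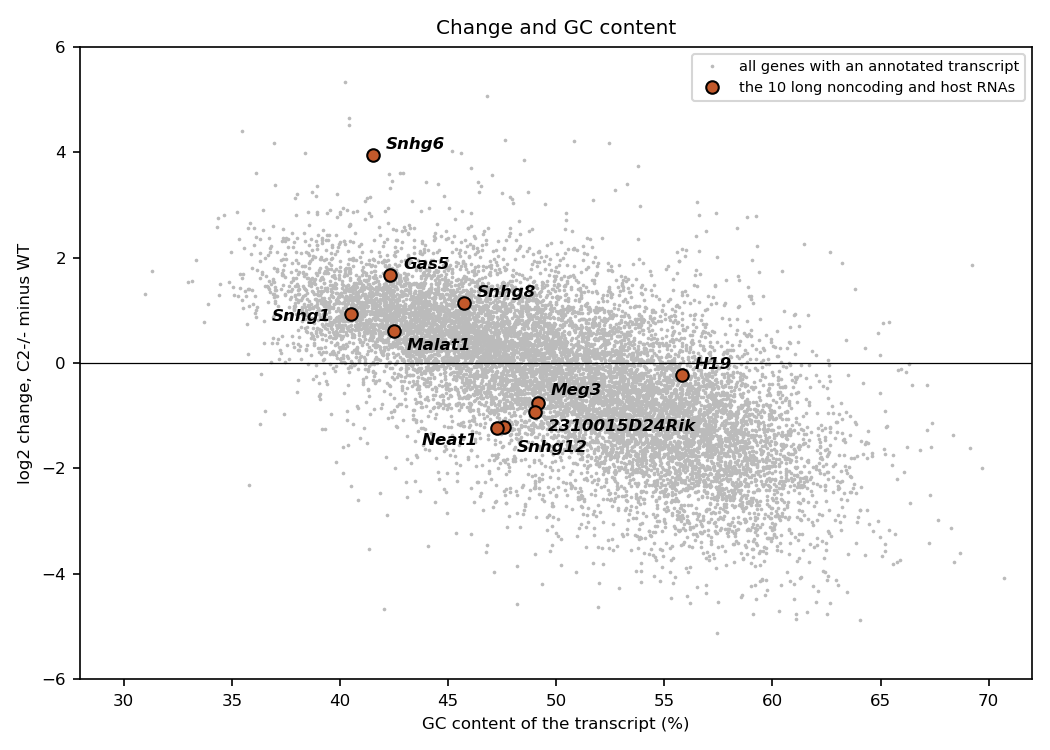
Log2 change (C2-/- minus WT) against the GC content of the transcript in percent, with all matched genes in grey and the 10 RNAs as labelled circles. The cloud falls from left to right (rho -0.68), *Snhg6* stands 2.99 above genes of its GC content, and *Nrtn*, *Mir762* and *Mybpc2* lie outside the axes.

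By the threshold, 2 of the 10 RNAs were higher in C2-/- (*Snhg6* and *Gas5*), 2 were lower (*Neat1* and *2310015D24Rik*) and 6 did not pass. Median centring gives every library the same median. With it 4 of the 10 RNAs were higher and 2 lower, against 3040 and 2594 of all 12239 genes. On the deposited values, 20.2% of all genes were higher and 25.0% were lower, 45.2% in all. The C2-/- values lay wholly above the WT values for 3 RNAs and wholly below for 3, against 22.6% and 26.7% of all genes, 49.3% in all. With GC correction, *Snhg6* was higher and *Neat1* and *2310015D24Rik* were lower, against 12.3% and 8.33% of 12174 genes, 20.6% in all. The RNAs were chosen on this contrast and nothing is read from these counts. The median change of the 10 RNAs was +0.19 and that of all genes -0.14, and the median of the 5 hosts was +1.14. With GC correction these medians were -0.16, +0.02 and +0.70.

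**Figure D3:**
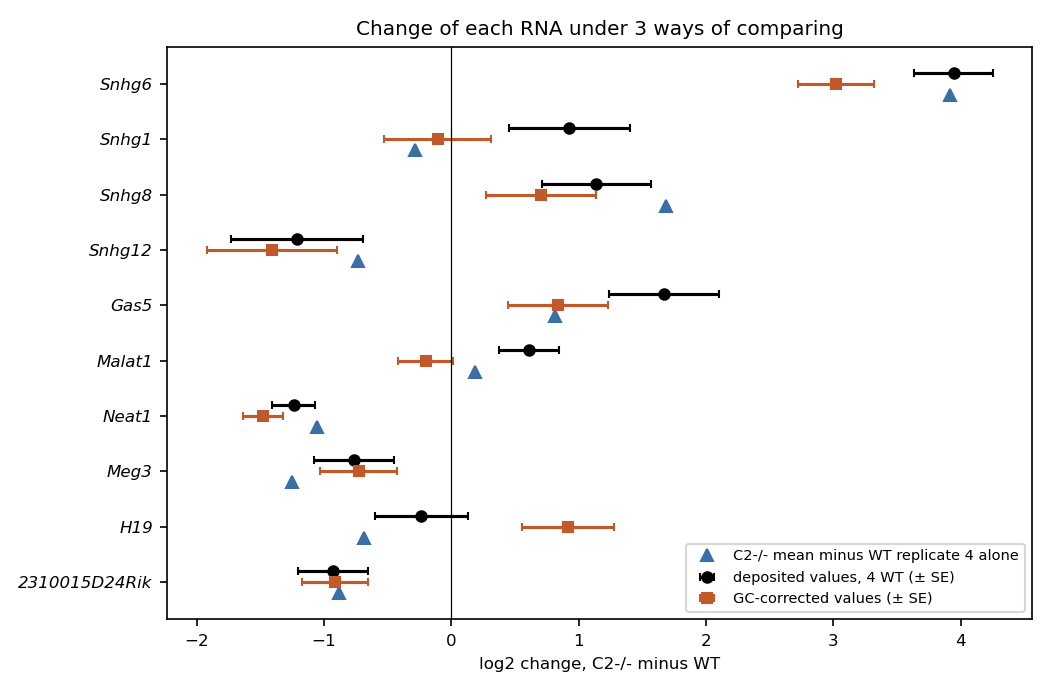
Log2 change (C2-/- minus WT) of each RNA on the deposited values, on GC-corrected values (both with the SE of limma's model) and against WT replicate 4 alone, which has no error. *Snhg6* stays between 3.02 and 3.94 and *Neat1* between -1.48 and -1.06, while *Snhg1*, *Malat1* and *H19* lie on both sides of 0.

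Levels were compared between RNAs only per kb of annotated exon. In WT, *H19* was highest at 118 CPM per kb, followed by *Neat1* at 59.0 and *Malat1* at 23.5. *2310015D24Rik* (9.84), *Gas5* (6.81) and *Snhg8* (4.92) came next, and *Snhg6* (2.42), *Snhg1* (1.82), *Snhg12* (1.41) and *Meg3* (1.36) had the lowest levels. Neighbours in this order had overlapping ranges over the WT libraries and were not resolved, except *Neat1* from *Malat1*, *Malat1* from *2310015D24Rik* and *Snhg8* from *Snhg6*. In C2-/-, *Snhg6* stood at 37.6 CPM per kb beside *Malat1* at 35.8, *Neat1* at 25.0 and *Gas5* at 23.5. The range of *Snhg6* (32.4 to 41.4) then overlapped those of *Malat1* (26.5 to 41.7) and *Gas5* (13.0 to 42.3) and lay above that of *Neat1* (21.4 to 27.7). For *Snhg1*, *Snhg8*, *Snhg12* and *Gas5* the annotated exons cover all or nearly all of the gene. Introns that some transcripts keep are included, which lowers the values per kb of these hosts. *Neat1* was divided by 20771 bases and *Meg3* by 18089. Reads that come from shorter transcripts would make these 2 values too low, so their places in the order are uncertain.

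The genes next to each RNA were read for changes that follow the chromosome. *Cops5*, a COP9 signalosome subunit 80.5 kb from *Snhg6*, rose by 0.63 (SE 0.22, adjusted p = 0.0372) but did not pass without C2-/- replicate 3 (+0.40), while the kinase gene *Sgk3* 41.1 kb to its other side stood at -0.25 (SE 0.47, adjusted p = 0.678). *Serpinc1*, which encodes antithrombin 28.6 kb from *Gas5*, was higher (adjusted p = 0.00234), on 0, 3, 3 and 0 reads in WT and 7, 21 and 14 in C2-/-. Its WT reads were at or below the floor, so that no size is given. *Wdr74*, 9.38 kb beyond *Snhg1*, fell (-1.56, SE 0.54, adjusted p = 0.0377), though without C2-/- replicate 2 it stood at -0.87 and did not pass and without C2-/- replicate 3 at -2.20. The gene *Slc3a2*, which starts 0.106 kb from *Snhg1* on the other strand, stood at -0.57 (adjusted p = 0.0801). *Cops5* and *Wdr74* did not pass with GC correction.

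*Frmd8*, beyond *Neat1*, stood at -0.45 (adjusted p = 0.359). *Igf2*, the growth factor gene of the *H19* cluster, stood at +0.65 (adjusted p = 0.112). With GC correction *Igf2* was at +1.80 and passed (adjusted p = 0.00575), and it also passed without C2-/- replicate 3 (+1.03). *Nctc1* on the other side stood at -0.32 (adjusted p = 0.318). *Rian*, the imprinted RNA that follows *Meg3*, stood at +0.17 (adjusted p = 0.712), and at -1.35 with GC correction (adjusted p = 0.0249). *Wdr25*, 513 kb before *Meg3*, was lower (adjusted p = 0.00744), on 55, 61, 58 and 10 reads in WT and 3, 0 and 1 in C2-/-. The C2-/- reads were at or below the floor, so that no size is given. *Camk2d*, 3088 kb from *Snhg8*, rose by 1.60 (adjusted p = 0.000321). *Mettl14* beside *Snhg8*, *Taf12* and *Trnau1ap* beside *Snhg12*, and *Mkl2* and *Parn* beside *2310015D24Rik* were not past the threshold. All these p-values are limma's over 12239 genes.

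The other noncoding snoRNA hosts were looked at for a rise like that of *Snhg6*. The counts of this list and of those that follow stand beside 20.2% of all genes higher and 25.0% lower, or 12.3% and 8.33% with GC correction. Over all genes, voom gave 2771 higher and 3244 lower. Median centring gave 3040 and 2594, and quantile normalization 2883 and 2760. No share of all genes was counted at an unadjusted p, so nothing is read from the list counts at that cut. Of 16 listed, 12 were in the table, and 0 were higher and 1 was lower by limma on the log2 values. At an unadjusted p under 0.05, 3 were higher and 1 lower, and by voom on the recovered reads 2 were higher and 1 lower. The direction of the calls depended on the scaling, with 2 higher and 0 lower after median centring and 5 higher and 0 lower after quantile normalization. It also depended on single libraries, with 2 higher and 1 lower without WT replicate 4 or without C2-/- replicate 1, 2 and 2 without C2-/- replicate 2, and 0 and 0 with any 1 of the other 4 libraries left out. The largest change upwards was +1.32 (SE 0.50, adjusted p = 0.0535) for *Snhg14*, which stood at -0.67 with GC correction. The median change was +0.63, against -0.14 over all genes. *Snhg3* stood at +1.20 (SE 0.51, adjusted p = 0.0763), and *1500012F01Rik* (*Zfas1*) at +0.76 (SE 0.33, adjusted p = 0.0828). The lower one was *Snhg7* (adjusted p = 0.0431), on 6 to 32 reads per WT library and 1 to 2 per C2-/- library, below the floor, so that no size is given. It did not pass without C2-/- replicate 3 or with any 1 of WT replicates 1 to 3 left out. These 4 were picked after their values were seen. With GC correction none of the 10 hosts that could be matched passed the threshold and their median was +0.28.

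Protein-coding hosts, mostly ribosomal protein and translation factor genes, were all in the table (26 of 26). Of these, 7 rose, 7 fell and 12 did not pass, with a median change of +0.05. Median centring gave 9 higher and 5 lower, and quantile normalization 4 higher and 8 lower. *Rpl21* rose by 1.93 (SE 0.31, adjusted p = 0.00138), *Rps20* by 1.20 (SE 0.23, adjusted p = 0.00252) and *Rps12* by 0.89 (SE 0.18, adjusted p = 0.00386), each a ribosomal protein gene. *Eef2*, the translocation factor of the ribosome, fell (-1.97, SE 0.23, adjusted p = 0.000342), as did *Rpl3* (-1.87, SE 0.32, adjusted p = 0.00174) and *Rpsa* (-1.61, SE 0.16, adjusted p = 0.000231). With GC correction 4 were higher and 8 lower, and *Rps20* did not pass. *Eef2* then stood at -0.65, *Rpl3* at -1.37, *Rpsa* at -1.33, *Rpl21* at +1.97 and *Rps12* at +1.59. Ribosomal protein genes have many processed pseudogenes with near-identical sequence, and the treatment of reads that map to several places was not stated, so their values are uncertain.

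Of the proteins that bind snoRNAs or assemble them into particles, 18 of 19 were in the table, with 3 higher, 7 lower and a median change of -0.03. The split was 5 higher and 4 lower with median centring, 5 and 5 with quantile normalization, and 3 and 3 without WT replicate 1 or without WT replicate 2. *Naf1*, an H/ACA assembly factor, rose by 1.64 (SE 0.35, adjusted p = 0.00441). *Nop58*, a core C/D protein, rose by 1.16 (SE 0.33, adjusted p = 0.0177) but did not pass without C2-/- replicate 1 (+1.13). *Dkc1*, the pseudouridine synthase, rose by 0.73 (SE 0.20, adjusted p = 0.0135). *Fbl*, the C/D methyltransferase, fell (-3.10, SE 0.92, adjusted p = 0.0202) on 46 to 203 reads in WT and 13, 0 and 13 in C2-/-. Without C2-/- replicate 2 it stood at -1.67, and without C2-/- replicate 1 at -3.99. *Ruvbl2*, an assembly ATPase, fell (-3.15, SE 0.64, adjusted p = 0.00348) on 2 to 43 reads in C2-/-, and stood at -2.19 without C2-/- replicate 2 and -3.82 without C2-/- replicate 3. *Rrp9*, a snoRNP protein, fell as well (-1.71, SE 0.52, adjusted p = 0.0217), and stood at -1.04 without C2-/- replicate 2. It did not pass with any 1 of WT replicates 1 to 3 left out. With GC correction 1 was higher (*Naf1*) and 1 lower (*Nhp2l1*, a core C/D protein gene picked after its value was seen), and the other named ones did not pass. On the deposited values *Nhp2l1* did not pass without C2-/- replicate 3 or without WT replicate 1 or 2.

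Nonsense-mediated decay, the pathway known to degrade spliced host RNAs, was represented by 19 of 19 listed genes, with 4 higher, 4 lower and a median change of +0.13. *Upf3b* rose by 2.06 (SE 0.49, adjusted p = 0.00760), *Pnrc2* by 1.80 (SE 0.25, adjusted p = 0.000709) and *Upf2* by 1.15 (SE 0.16, adjusted p = 0.000793). *Smg5* (-2.24, SE 0.27, adjusted p = 0.000414), *Smg8* (-1.84, SE 0.42, adjusted p = 0.00597) and the helicase gene *Upf1* (-1.46, SE 0.26, adjusted p = 0.00195) fell. With GC correction 1 was higher (*Pnrc2*, +0.76) and 2 were lower (*Smg5*, -0.99, and *Smg8*, -1.63). *Upf2* and *Upf3b* did not pass with it and *Upf1* stood at -0.02.

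Paraspeckle proteins, the partners of *Neat1*, were represented by 15 of 15 listed genes, with 6 higher, 2 lower and a median change of +0.50. *Sfpq* rose by 1.41 (SE 0.17, adjusted p = 0.000428), *Hnrnph3* by 1.41 (SE 0.26, adjusted p = 0.00232) and *Pspc1* by 1.34 (SE 0.40, adjusted p = 0.0194). *Rbm14* (-2.18, SE 0.48, adjusted p = 0.00516) and the chromatin remodeller gene *Smarca4* (-1.26, SE 0.20, adjusted p = 0.00134) fell. With GC correction 3 were higher and 0 lower by limma (5 higher and 4 lower at an unadjusted p under 0.05), and the median was -0.07. *Pspc1* (+0.42), *Rbm14* and *Smarca4* did not pass with it, and *Pspc1* did not pass without C2-/- replicate 3 either. *Sfpq* stood at +1.56 with that correction, while *Neat1* itself was lower in both fits.

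Nuclear speckle proteins, which share their compartment with *Malat1*, were represented by 18 of 18 listed genes, with 6 higher, 3 lower (8 and 2 with median centring) and a median change of +0.30. The splicing factor genes *Srsf11*, *Pnn* and *Tra2a* rose by 1.80 (SE 0.21, adjusted p = 0.000375), 1.53 (SE 0.31, adjusted p = 0.00352) and 1.25 (SE 0.25, adjusted p = 0.00318). *Srrm2*, which encodes a scaffold of the speckle, fell (-0.99, SE 0.16, adjusted p = 0.00142). *U2af2* (-0.86, adjusted p = 0.00799) and *Acin1* (-0.69, adjusted p = 0.0168) fell, and both were above 0 with GC correction. *Acin1* did not pass without C2-/- replicate 3 or with any 1 of WT replicates 1 to 3 left out either. That correction gave 4 higher, *Srsf11* and *Pnn* among them, and 1 lower. The lower one was *Srsf6*, a splicing factor gene picked after its value was seen, at -1.12 (adjusted p = 0.00528), which was not past the threshold on the deposited values (-0.34). *Srrm2* (-0.44) and *Tra2a* (+0.62) did not pass with it.

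Other long noncoding RNAs were represented by 15 of 24 listed genes, with 4 higher and 0 lower by limma (20.2% and 25.0% of all genes) and a median change of +0.57. By voom 5 were higher and 0 lower (2771 and 3244 of all genes). At an unadjusted p under 0.05, for which no share of all genes was counted, 6 were higher and 0 lower. *Kcnq1ot1*, the antisense RNA of the imprinted *Kcnq1* cluster, rose by 2.91 (SE 0.46, adjusted p = 0.00116), from 2.53 ± 0.73 (SD, n = 4) to 5.44 ± 0.72 (SD, n = 3). *Airn*, the antisense RNA of the *Igf2r* cluster, rose by 2.01 (SE 0.43, adjusted p = 0.00459), and *Ftx*, a gene of the X-inactivation centre, by 1.32 (SE 0.44, adjusted p = 0.0318). *Kcnq1ot1* and *Airn* passed the threshold with GC correction as well, at +1.85 and +1.66, and *Ftx* did not (+0.74). *Ftx* also did not pass without C2-/- replicate 2 (+0.88) or with any 1 of WT replicates 1 to 3 left out. *Kcnq1ot1* and *Airn* each lie antisense to a coding gene. Without strand in the counting their reads cannot be told apart from those of that gene. With GC correction 3 of the 15 were higher and 3 lower, with a median of -0.15.

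The imprinted gene network that *H19* and *Meg3* belong to was represented by 16 of 20 listed genes. Of these, 6 rose and 0 fell by limma (20.2% and 25.0% of all genes), with a median change of +0.63. By voom 7 rose and 0 fell (2771 and 3244 of all genes). At an unadjusted p under 0.05, for which no share of all genes was counted, 8 were higher and 0 lower. *Plagl1*, a zinc finger gene of the network, rose by 3.25 (SE 0.51, adjusted p = 0.00119) from 3 to 16 reads in WT to 17 to 36 in C2-/-. *Dcn*, the proteoglycan decorin, rose by 1.94 (SE 0.16, adjusted p = 0.000162) and *Gatm*, an enzyme of creatine synthesis, by 1.90 (SE 0.35, adjusted p = 0.00239). *Dcn* is also a fibroblast marker. With GC correction 7 were higher and 1 (*Rian*) lower, with a median of +0.31.

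**Figure D4:**
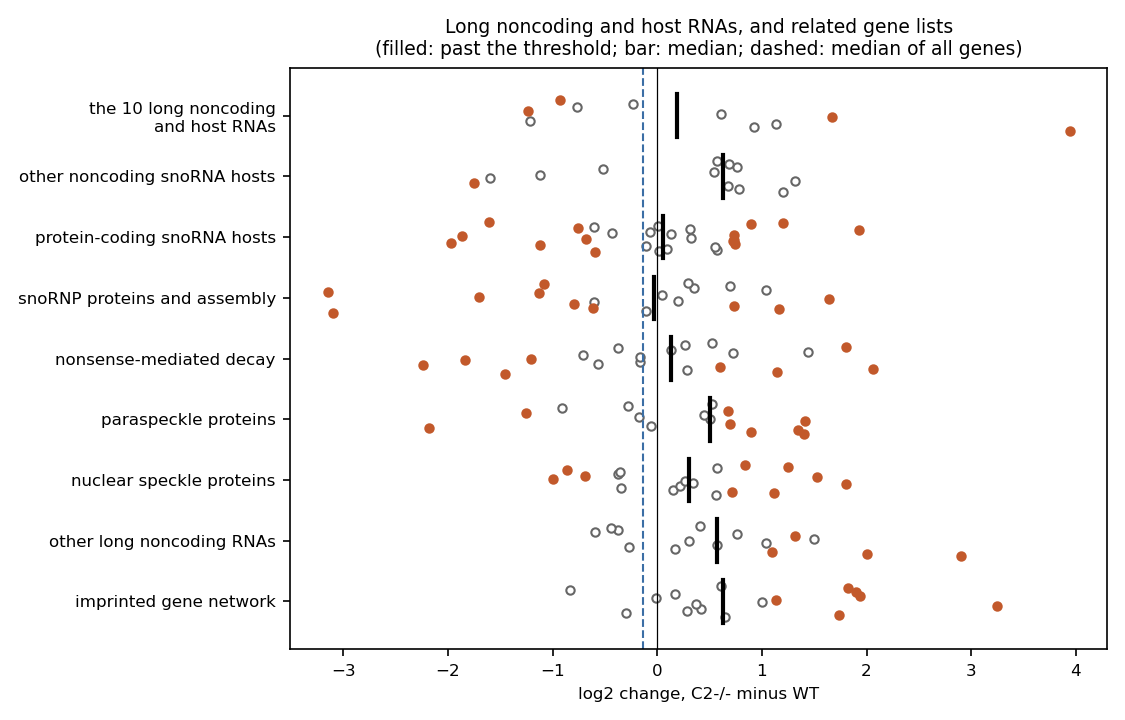
Log2 change (C2-/- minus WT) of each gene of the set and of the 8 related lists, with 1 circle per gene, filled where past the threshold, and black bars at the medians. *Snhg6* at 3.94 lies to the right of every gene of the lists, and the dashed line is the median of all genes at -0.14.

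The 5 genes whose values were most like those of *Snhg6* over the 7 libraries were *Tpd52* (Pearson's r 0.997), *Epc2* (0.996), *Pkia* (0.996), *Ufl1* (0.995) and *Vamp3* (0.995). Their changes were +1.10, +1.43, +0.74, +1.24 and +0.73, each smaller than that of *Snhg6*. With GC correction they were +0.46, +0.70, -0.44, +0.13 and +0.14, so that the direction of *Pkia* turned and *Epc2* was the only one of the 5 still past the threshold. An r above 0.9 with *Snhg6* was found for 1315 genes. The part of the step between the groups in these values was not tested. The r with *Snhg6* was 0.81 for *Gas5*, 0.77 for *Snhg8* and 0.65 for *Snhg1* and *Malat1*. It was -0.28 for *H19*, -0.69 for *Meg3*, -0.83 for *Snhg12*, -0.84 for *2310015D24Rik* and -0.97 for *Neat1*. These are descriptions over libraries that differ in depth and in GC trend as well as in genotype.

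Markers of the cells in the muscle differed between the groups alongside these RNAs. The summed level of 8 fibre genes was 187409 to 217165 CPM in WT and 97517 to 117311 in C2-/-, with 5 of 8 lower. That of 8 fibroblast genes was 988 to 1188 CPM in WT and 2080 to 2605 in C2-/-, with 6 of 8 higher and 1 lower. That of 4 adipocyte genes was 159 to 365 CPM in WT and 471 to 633 in C2-/-, with 1 higher. *Fabp4*, which endothelium also expresses, made up 96.1% to 99.8% of it and was the 1 that rose, and the other 3 summed to 0.325 to 8.65 CPM in WT and 3.10 to 11.6 in C2-/-. That of 7 satellite cell genes was 3431 to 4241 CPM in WT and 1519 to 2112 in C2-/-, with 2 higher and 2 lower. *Des*, which fibres also express, made up 95.8% to 98.2% of it, and the other 6 summed to 70.1 to 84.0 CPM in WT and 44.7 to 63.1 in C2-/-. The genes higher were *Myf5* (+1.95) and *Chodl* (+1.61), and those lower *Des* (-1.12) and *Myod1* (-1.09). The ranges of the endothelial (357 to 522 and 297 to 388), macrophage (57.6 to 78.7 and 67.5 to 107), Schwann cell (71.2 to 139 and 73.3 to 109) and smooth muscle genes (267 to 394 and 255 to 449) overlapped. Of 8 endothelial genes 1 was higher and 3 lower, of 8 macrophage genes 2 were higher and 1 lower, of 7 Schwann cell genes 1 was lower and of 8 smooth muscle genes 2 were lower. Red cell and T and B cell lists had 1 gene each in the table, of which the red cell gene *Alas2* was lower (-1.52). *Alas2* did not pass with GC correction (-0.79). With GC correction 0 fibre genes were higher and 2 lower, 4 fibroblast genes were higher and 0 lower, and no satellite, endothelial or Schwann cell gene passed. The adipocyte (*Plin1*), macrophage and smooth muscle lists then had 1 gene higher each and 0 lower, and *Fabp4* (+0.41) did not pass. The part of cell makeup in the changes of the 10 RNAs was not tested.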

How the data were processed

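Polyadenylated RNA of TA muscle was sequenced, per the study from 4 WT and 3 C2-/- mice, as DNA nanoballs. Per the labels, reads were aligned to GRCm38.p6 with HISAT and counted with featureCounts 1.5.2. The authors scaled them with edgeR's TMM factors and deposited log2 values for 12239 genes, with 0.5 reads added. A second deposited table held the authors' own comparison (log2 fold change, p-value, adjusted p-value, moderated t and log-odds score) and was not used. Whole reads were recovered from the log2 values (100.0% within 0.0001 reads). The floor of 3 reads equals 0.195 to 1.12 CPM, for counting error only.

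The test was limma 3.58.1 (R 4.3.3; lmFit, eBayes with a trend) on the log2 values, with genotype as the only term and Benjamini-Hochberg adjustment over 12239 genes. A gene was past the threshold at an adjusted p under 0.05 and a fold above 1.5. For the GC correction a natural spline (5 df) on transcript GC content (12174 genes, 99.5%) was removed per library. Gene positions and snoRNAs came from GENCODE for GRCm38, and starts from RefSeq.

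The RNAs and lists were chosen with earlier results of these data known. Named were the 10 RNAs, up to 3 genes per list and direction past the threshold (largest change, groups not overlapping, mean log2 of at least 1 in the higher group), the nearest gene in the table on each side (some are not reported here), the 5 genes most like *Snhg6*, and *Mybpc2*. Alternatives were quantile normalization, median centring, a mean log2 of at least 3, log2(CPM + 1), no trend, voom, GC correction, a replicate block, each library left out, and WT replicate 4 alone.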

Additional observations from a re-analysis of the deposited data

Results flagged for a closer look

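Of 11 values looked at over the 4 WT libraries (the 10 RNAs and the depth), 2 had a library far from the other 3 by Dixon's criterion, where chance gives about 0.55. *Snhg1* was 3.46 in WT replicate 4 and 1.78 to 1.90 in the other WT libraries, on 48 reads against 51 to 57. The reads in the table summed to 4683853 in WT replicate 4 and to 14929214 to 15464499 in the others.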

How the results depend on the processing

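*Snhg6* and *Neat1* were past the threshold in the same direction in 16 of 16 fits (3.02 to 4.15 and -1.48 to -1.08), *Gas5* in 14 of 16 and *2310015D24Rik* in 13 of 16. *Snhg8* passed in 6 of 14, *Snhg1* in 3 of 14, *Snhg12* in 2 of 14, *Malat1* in 7 of 16, *Meg3* in 1 of 16 and *H19* in none of 16. The number of the 10 RNAs past the threshold was 4, and 7 with log2(CPM + 1) and with voom, 3 with GC correction and 3 to 6 with 1 library left out. With GC correction 2509 genes passed (2165 at a mean log2 of at least 3) in place of 5528, and 4095 to 6136 with 1 library left out. With log2(CPM + 1) 5715 genes passed, and with voom 6015.

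With GC correction, the lists had 0 other noncoding hosts, 2 snoRNP, 3 decay, 3 paraspeckle (4 at a mean log2 of at least 3) and 5 nuclear speckle genes past the threshold, in place of 1, 10, 8, 8 and 9. The other noncoding hosts had 2 with log2(CPM + 1), with median centring and without the trend, 3 with voom and 5 with quantile normalization. With 1 library left out they had 0 to 4, the snoRNP list 6 to 12, the paraspeckle list 5 to 9, the decay list 7 to 11 and the speckle list 6 to 11. Leaving out WT replicate 1 or 2 gave 6 snoRNP genes, and leaving out C2-/- replicate 3 gave 5 paraspeckle genes.

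Directions that turned with GC correction were *Snhg1* (-0.11), *Malat1* (-0.20), *H19* (0.92), *Acin1* (0.25), *U2af2* (0.37), *Frmd8* (0.75), *Mettl14* (-0.50), *Nctc1* (0.46), *Rian* (-1.35), *Slc3a2* (0.18), *Pkia* (-0.44) and *Snhg14* (-0.67) among the named RNAs and genes. With 1 library left out, *H19* ranged from -0.61 to 0.080, *Sgk3* from -0.57 to 0.38, *Rian* from -0.0043 (without C2-/- replicate 1) and -0.0088 (without WT replicate 3) to 0.42, and *Trnau1ap* from -0.29 to 0.23, and *Trnau1ap* was -0.043 with voom. Of 48 other named genes past the threshold, 9 lost the call with 1 library left out (*Acin1*, *Cops5*, *Ftx*, *Nhp2l1*, *Nop58*, *Pspc1*, *Rrp9*, *Snhg7* and *Wdr74*) and 23 lost or turned it with GC correction. The causes were not tested.

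The WT and C2-/- libraries share replicate numbers 1 to 3. Deviations from the group means had r of 0.05, -0.06 and -0.05 between libraries of the same number. So few libraries cannot exclude a pairing, and none was used in the main fit. With a replicate block 5901 genes, 6 of the 10 RNAs and 2 other hosts passed, and *Trnau1ap* was at -0.29, its value without WT replicate 4. Against WT replicate 4 alone with GC correction, chosen after seeing the data, *Snhg6* was 3.23, *Gas5* 0.20, *Snhg1* -1.07 and *Neat1* -1.26. Depth limits values that rest on few reads, such as *Snhg12* in C2-/- (4 to 5 reads).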
